A study of Homo sapiens with 16 samples.

Results

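The genes described here are 10 members of the BMP-SMAD response: the ID genes *ID1*, *ID2*, *ID3* and *ID4*, the inhibitors of the signal *SMAD6*, *SMAD7* and *BAMBI*, and the signal carriers *SMAD1*, *SMAD5* and *BMPR1A*. They are 10 of the 26475 rows of the count table and were looked up by symbol. They were picked on a measured value, because *ID1* was lower with both inhibitors than with collagen alone, and the question is whether the other genes of the response followed it. The values of *ID1* in those comparisons are therefore given as a description.

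MCF10A, a non-tumorigenic line of human breast epithelial cells, was grown on plates in a medium with horse serum and EGF. There were 16 bulk RNA-seq libraries, 4 in each of 4 groups. The control group received DMSO and 2 media changes without collagen, and the collagen group received DMSO with collagen I at 0.05 mg/mL, and NaOH to polymerize it, over the final 24 h. The other groups received the same collagen together with DDR1-IN-1 (DDR1i, 2 μM), an inhibitor of the collagen receptor kinase DDR1, or with AI-10-104 (RUNXi, 5 μM), which keeps RUNX proteins from their partner CBFβ, each present for 48 h. All groups are of a single cell line, and the labels do not say whether the 4 libraries of a group were separate cultures, so that the p-values measure the spread between these libraries, which may be technical.

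BMP ligands bind receptors such as BMPR1A, which phosphorylate SMAD1 and SMAD5, and these enter the nucleus with SMAD4. ID1, ID2 and ID3 are among the best known direct targets. ID proteins have a helix-loop-helix but no DNA-binding region, so that they hold E proteins away from DNA, and in epithelia they are known for keeping cells in an undifferentiated, dividing state. SMAD6, SMAD7 and BAMBI are induced by the same family of signals and dampen it.

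Total counts per library ranged from 12184619 to 44332378. Collagen replicate 3, which the authors took out as an outlier, was left out of the tests, and its values are given beside the others. A value in CPM is a count scaled to the size of its library, with TMM factors over all 16 libraries. A gene was called when its p was under 0.05 in the quasi-likelihood test of edgeR, adjusted over all tested genes by Benjamini and Hochberg's method. All 10 epithelial markers had counts in each group, and their summed level ranged from 11266 to 21105 CPM. Endothelial markers summed to at most 3.99 CPM, fibroblast markers to at most 32.9 CPM and leukocyte markers to at most 43.7 CPM, and *COL3A1* and *CDH5* were at 0 in all libraries. The inhibitors act on proteins, so that counts do not check the labels. *DDR1*, *RUNX1* and *CBFB* were called in none of the comparisons, and their log2 fold changes against collagen alone lay between -0.20 and 0.31.

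*ID1* lies on chromosome 20 from 30193086 to 30194318 (GRCh37, plus strand) and has 2 exons in a transcript of 983 bases. With collagen alone, *ID1* stood at 161, 169 and 120.4 CPM in replicates 1, 2 and 4, and at 85.6 CPM in replicate 3. With DDR1i it stood at 102, 88.5, 57.8 and 61.1 CPM, and with RUNXi at 73.1, 71.7, 54.0 and 66.3 CPM. Both inhibitor groups lay below the 3 tested collagen libraries with no overlap, whereas collagen replicate 3 fell inside the range of the DDR1i libraries and above all RUNXi libraries. The log2 fold change against collagen was -0.96 with DDR1i (standard error 0.17) and -1.18 with RUNXi (standard error 0.17), which corresponds to 0.514 and 0.441 of the collagen level. With collagen replicate 3 included it was -0.80 and -1.03. In bulk RNA, fewer cells that express a gene and less RNA per cell cannot be told apart.

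**Figure D1:**
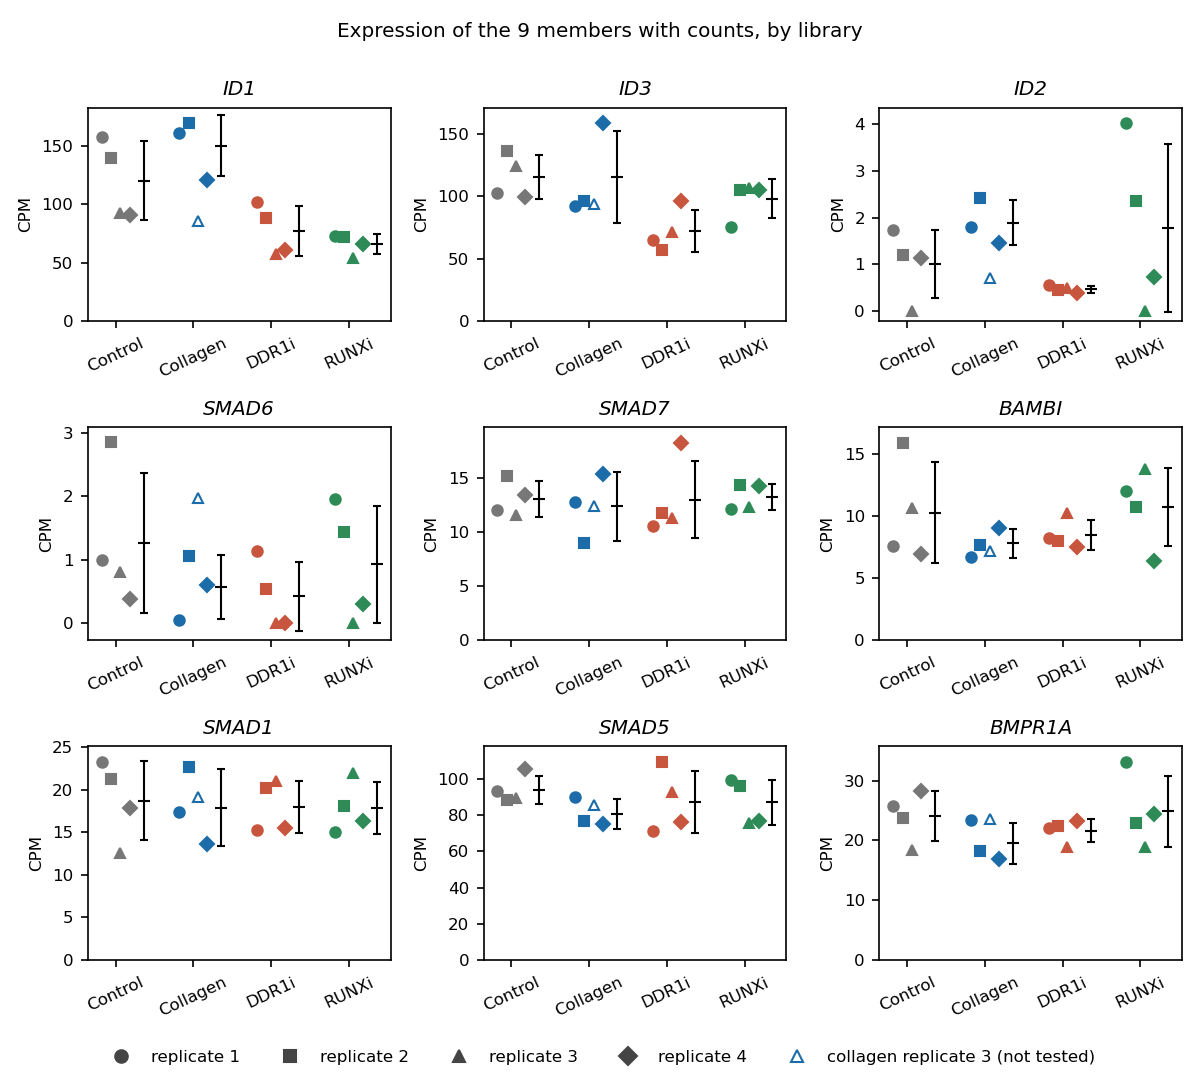
Each panel plots the CPM of 1 gene (vertical axis, from 0) in the 16 libraries by group, with marker shape for the replicate number, an open triangle for collagen replicate 3 and the mean ± SD of the tested libraries as a black bar. The inhibitor libraries of *ID1* sit at 54.0 to 102 CPM under the 3 tested collagen libraries, while *SMAD7*, *SMAD1*, *SMAD5* and *BMPR1A* overlap in all groups.

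The vehicle control is a reference that was not used to pick the genes, although the inhibitor libraries are the same. *ID1* stood at 158, 139.8, 92.2 and 91.1 CPM in the control libraries. All 4 RUNXi libraries lay below all control libraries, while the DDR1i range reached above the lower pair of control libraries. The log2 fold change against control was -0.86 with RUNXi (95% interval -1.26 to -0.46, adjusted p = 0.0550, edgeR quasi-likelihood test, Benjamini-Hochberg) and -0.64 with DDR1i (interval -1.04 to -0.23, adjusted p = 0.396, same edgeR test). Neither passed the threshold. Collagen alone differed from the control by 0.32 (interval -0.09 to 0.74, adjusted p = 0.505, same edgeR test). DDR1i and RUNXi differed from each other by 0.22 (interval -0.12 to 0.56, adjusted p = 0.999, same edgeR test), so that a difference of up to 0.56 between the inhibitors is inside the interval.

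*ID1* also varied with the replicate number that the labels give. In each of the 4 groups, replicates 1 and 2 were higher than replicates 3 and 4. This was noticed after the values were seen, and 61 of the 13548 tested genes (0.450%), *ID1* as the 1 member among them, had this order. The opposite order, with replicates 1 and 2 lower in all 4 groups, was found in 138 genes (1.02%). The labels do not say that a number marks a culture date or batch. The left-out collagen library is from the lower pair of numbers. Within number 3, *ID1* stood at 92.2 CPM in the control, 85.6 with collagen, 57.8 with DDR1i and 54.0 with RUNXi. *ID1* was lower with DDR1i and with RUNXi than with collagen, and than with the control, in 4 of 4 numbers each. With the replicate number as a block, the log2 fold change of *ID1* against the control was -0.64 with DDR1i (adjusted p = 0.00459, edgeR quasi-likelihood test, Benjamini-Hochberg) and -0.82 with RUNXi (adjusted p = 0.000282, same edgeR test), so that both passed the threshold in that fit. Over 22 alternative settings the adjusted p of *ID1* against the control ran from 0.00105 to 1.00 with DDR1i (2 called) and from 0.000243 to 0.343 with RUNXi (9 called, same edgeR test or DESeq2).

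**Figure D2:**
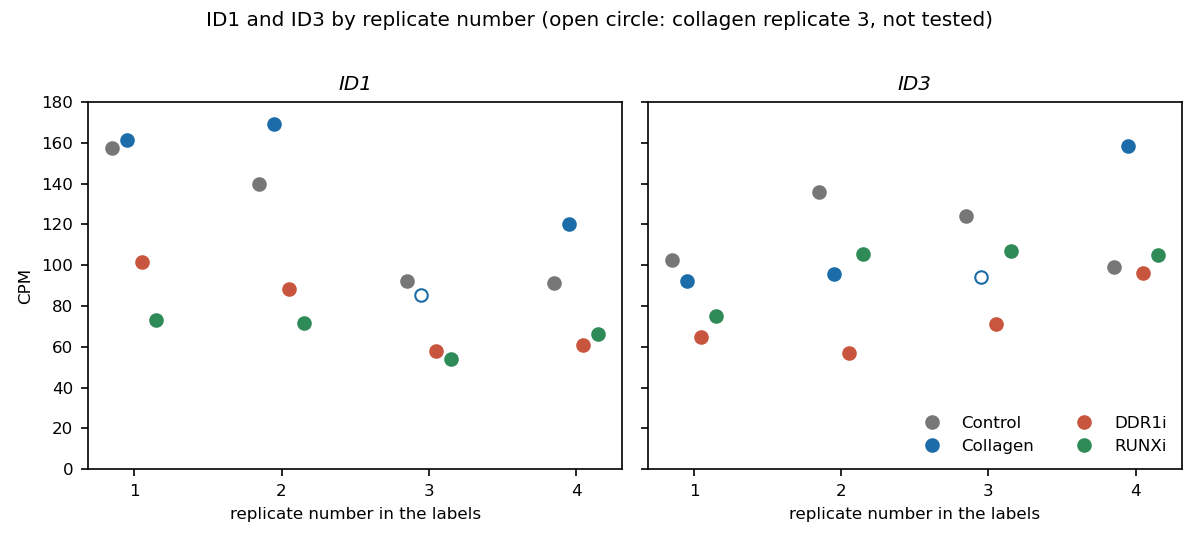
CPM of *ID1* (left) and *ID3* (right) on the vertical axis against the replicate number in the labels, coloured by group, with collagen replicate 3 as an open circle. In each group *ID1* is higher at numbers 1 and 2 than at 3 and 4, and *ID3* is lowest with DDR1i at every number.

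*ID3* (chromosome 1, 23884417 to 23885992, minus strand, a transcript of 950 bases) had about the same total count as *ID1*, 36965 against 38772 over all libraries. *ID3* stood at 103, 136, 124 and 99.4 CPM in the control. It stood at 92.4, 95.9 and 158 CPM in collagen replicates 1, 2 and 4, and at 94.0 CPM in replicate 3. With DDR1i the values were 64.6, 57.2, 71.1 and 96.4 CPM. All DDR1i libraries lay below all control libraries, and replicate 4 alone reached above the lowest tested collagen library. With RUNXi the values were 75.2, 105, 107 and 105 CPM, inside the ranges of both references except for replicate 1.

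The log2 fold change of *ID3* with DDR1i was -0.68 against collagen (95% interval -1.08 to -0.28, adjusted p = 0.0622, edgeR quasi-likelihood test, Benjamini-Hochberg) and -0.68 against the control (upper bound -0.36, adjusted p = 0.0856, same edgeR test). *ID3* was lower with DDR1i in 4 of 4 replicate numbers against collagen, control and RUNXi alike, but none of these comparisons passed the threshold. With RUNXi it was -0.23 against collagen (interval -0.63 to 0.16, adjusted p = 0.531, same edgeR test) and -0.23 against the control (adjusted p = 0.835, same edgeR test). For collagen against the control the interval of *ID3* ran from -0.40 to 0.39. The direct difference of DDR1i from RUNXi was -0.44 (interval -0.81 to -0.07, adjusted p = 0.635, same edgeR test). The call of *ID3* moved with the setting. It passed against collagen with DESeq2 (adjusted p = 0.0157, DESeq2), without a filter on low counts (adjusted p = 0.000172, edgeR) and with the replicate block (adjusted p = 0.00765, edgeR), and it did not pass with collagen replicate 3 included (adjusted p = 0.414, edgeR). Against the control it passed with DESeq2 (adjusted p = 0.0121, DESeq2), without the filter (adjusted p = 0.0106, edgeR) and with the block (adjusted p = 0.0150, edgeR). Over 22 alternative settings each, *ID3* with DDR1i was called in 8 against collagen (adjusted p from 0.000172 to 0.441, edgeR or DESeq2) and in 7 against the control (0.00337 to 0.699). Without collagen replicate 4, the highest collagen library, the log2 fold change against collagen was -0.38.

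**Figure D3:**
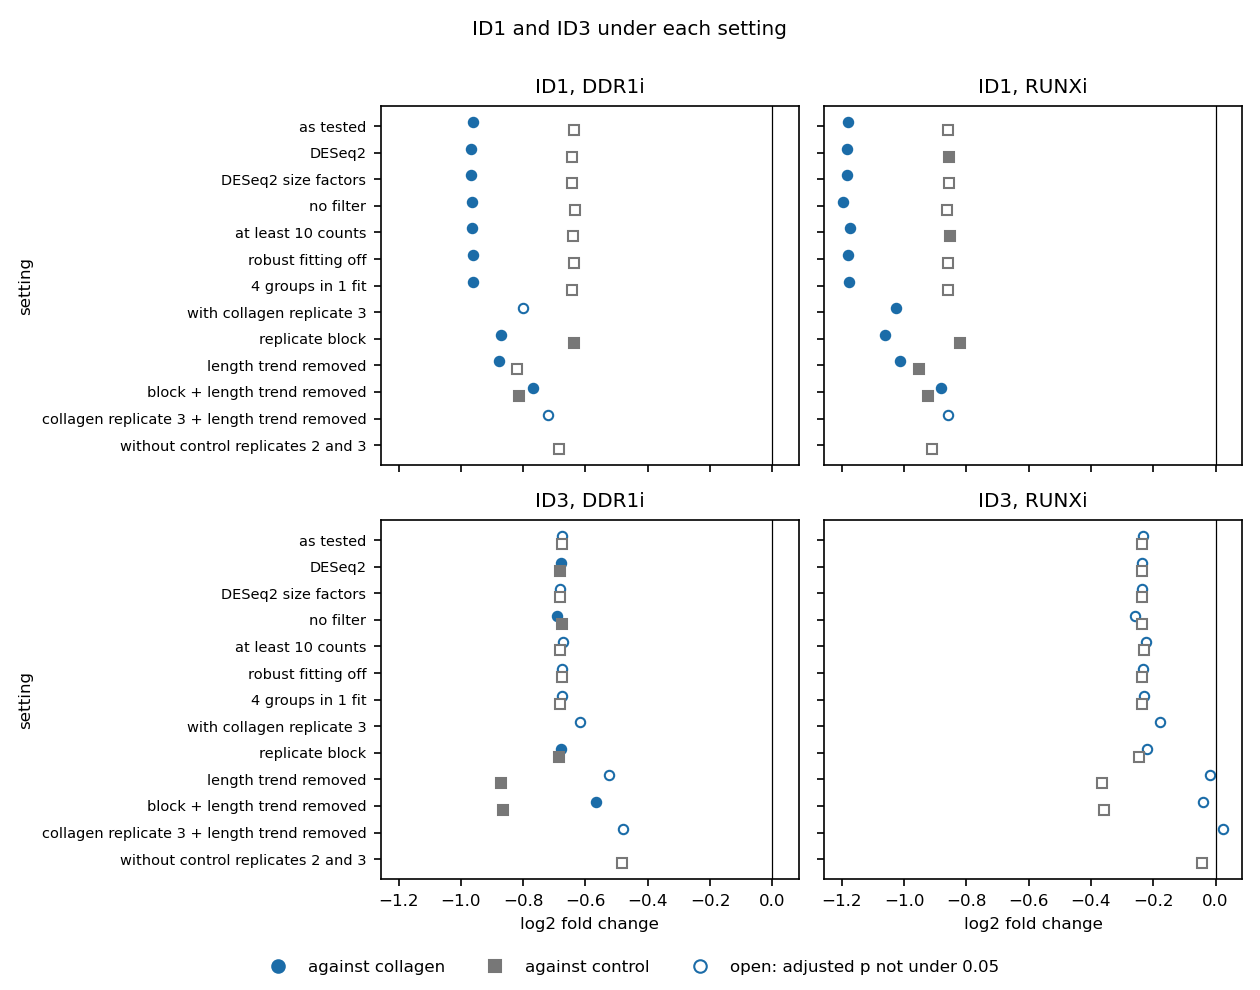
Log2 fold change (horizontal axis) of *ID1* and *ID3* for each inhibitor against collagen (circles) and against the control (squares) under each setting (vertical axis), filled where the adjusted p was under 0.05. *ID1* against collagen is filled except with collagen replicate 3 included for DDR1i and with that library included and the length trend removed for both inhibitors, and *ID3* is filled in part of the settings with DDR1i and in none with RUNXi. The genes were picked on *ID1* against collagen, so its circles are a description and not a test.

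The ratio of the *ID1* count to the *ID3* count, which needs no scaling between libraries, sets the 2 genes against each other within a library. It was 1.54, 1.03, 0.742 and 0.917 in the control and 1.75, 1.77, 0.910 and 0.760 with collagen. It was 1.57, 1.55, 0.813 and 0.634 with DDR1i, and 0.971, 0.681, 0.505 and 0.630 with RUNXi. The ratios with DDR1i lay within the range of the collagen ratios except for replicate 4, and 3 of the 4 RUNXi ratios lay below every ratio of the collagen group.

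*ID2* (chromosome 2, 8818975 to 8824591) was near the limit of detection, with 492 counts in all libraries together. It stood at 1.73, 1.19, 0 and 1.13 CPM in the control, and at 1.80, 2.41 and 1.45 CPM in the tested collagen libraries, with 0.696 CPM in replicate 3. With DDR1i it stood at 0.549, 0.445, 0.485 and 0.380 CPM, below every collagen library, and with RUNXi at 4.03, 2.36, 0 and 0.730 CPM. The DDR1i values rest on 13, 10, 11 and 6 counts, and the antisense gene *ID2-AS1* overlaps *ID2*, so that some of its few counts may be antisense reads. The log2 fold change with DDR1i was -2.01 against collagen, with an interval of -4.12 to 0.11 (adjusted p = 0.311, edgeR quasi-likelihood test, Benjamini-Hochberg), so that neither no change nor a large fall was outside it. In the 5 other comparisons of *ID2* the lowest adjusted p was 0.83 (same edgeR test).

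*ID4* (chromosome 6, 19837601 to 19842428) had 0 counts in all 16 libraries and was not tested. A count of 0 allows up to 3 counts, which is 0.0677 CPM in the largest library and 0.246 CPM in the smallest, for counting error only.

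With DDR1i, *ID1* and *ID3* had intervals below 0 against the control, but neither passed the threshold there. Their promoters are shown with that of *ID2*, whose counts were too low to compare. The windows hold 250 bases before and 50 after the start in RefSeq (GRCh38.p14 table) and were placed on GRCh37 by exact match: chr20:30192842-30193141 (plus strand) for *ID1*, chr1:23885943-23886242 (minus strand) for *ID3* and chr2:8821936-8822235 (plus strand) for *ID2*. Sequences run 5′ to 3′ in the direction of the gene, and capitals mark the letters TATAA.
ID1: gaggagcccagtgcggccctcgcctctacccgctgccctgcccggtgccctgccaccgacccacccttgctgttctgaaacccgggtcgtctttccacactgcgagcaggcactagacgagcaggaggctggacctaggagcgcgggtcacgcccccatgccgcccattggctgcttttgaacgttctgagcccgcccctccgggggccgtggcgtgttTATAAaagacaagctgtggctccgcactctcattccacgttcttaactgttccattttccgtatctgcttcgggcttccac
ID3: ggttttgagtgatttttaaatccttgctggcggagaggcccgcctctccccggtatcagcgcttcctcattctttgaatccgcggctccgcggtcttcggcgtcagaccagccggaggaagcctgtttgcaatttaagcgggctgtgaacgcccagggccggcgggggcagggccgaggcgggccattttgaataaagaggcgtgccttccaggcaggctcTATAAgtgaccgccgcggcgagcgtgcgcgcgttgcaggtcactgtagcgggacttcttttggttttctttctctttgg
ID2: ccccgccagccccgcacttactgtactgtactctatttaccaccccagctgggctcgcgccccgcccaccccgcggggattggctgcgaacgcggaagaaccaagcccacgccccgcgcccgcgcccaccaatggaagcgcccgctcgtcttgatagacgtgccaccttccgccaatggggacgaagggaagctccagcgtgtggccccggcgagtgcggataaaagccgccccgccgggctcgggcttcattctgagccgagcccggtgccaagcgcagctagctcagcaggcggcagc
Both *ID1* and *ID3* hold TATAA, starting 31 and 29 bases before the start, and the *ID2* window does not. These letters on the gene strand are found in 14.8% of all 35116 promoter windows. None of the 3 windows holds the RUNX motif letters TGTGGT (13.1% of all windows, both strands) or TGCGGT (7.29%), the GC-rich SMAD letters GGCGCC (19.2%) or the SMAD letters GTCTAGAC (0.202%). Among the other members, TGTGGT was found in the window of *SMAD5*, TGCGGT in 1 of 3 windows of *SMAD7*, GGCGCC in those of *BAMBI* and *SMAD5* and in 2 of 5 of *SMAD1*, and GTCTAGAC in that of *SMAD6*. A match, or its absence, describes these letters in the window only. Bases outside the window and other motif letters were not searched.

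*SMAD7* and *BAMBI*, which dampen the signal, were not lower with either inhibitor than with collagen, by the sign of their fold changes. *SMAD7* (chromosome 18, 46446223 to 46477335), which blocks receptors of the whole TGF-β family, stood at 12.8, 9.01 and 15.4 CPM in the tested collagen libraries and at 12.5 CPM in replicate 3. It stood at 10.6, 11.8, 11.3 and 18.2 CPM with DDR1i and at 12.1, 14.3, 12.3 and 14.3 CPM with RUNXi, and the groups overlapped. Its log2 fold change against collagen was 0.06 with DDR1i (interval -0.44 to 0.57) and 0.10 with RUNXi (interval -0.41 to 0.61).

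*BAMBI* (chromosome 10, 28966439 to 28971861), a pseudoreceptor without kinase activity, stood at 6.74, 7.69 and 9.05 CPM in the tested collagen libraries and at 7.18 CPM in replicate 3. With DDR1i it stood at 8.24, 7.97, 10.2 and 7.53 CPM and with RUNXi from 10.7 to 13.8 CPM in replicates 1, 2 and 3. These 3 lay above all tested collagen libraries, and RUNXi replicate 4, at 6.42 CPM, lay below them. Its log2 fold change with RUNXi was 0.45 against collagen (interval -0.14 to 1.05, adjusted p = 0.385, edgeR quasi-likelihood test, Benjamini-Hochberg) and 0.07 against the control, whose libraries ranged from 6.96 to 15.9 CPM.

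*SMAD6* (chromosome 15, 66994574 to 67075187), the inhibitory SMAD that acts mainly on BMP receptors, had 331 counts in all and stood at 0 in DDR1i replicates 3 and 4 and in RUNXi replicate 3. Its other libraries ranged up to 2.86 CPM, in control replicate 2, and values of 0.0561 to 1.98 CPM within the collagen group alone span the range of the inhibitor libraries above 0. The interval of its log2 fold change with DDR1i against collagen ran from -3.53 to 2.64, so that a change was not detectable at this depth.

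The receptor and the receptor-activated SMADs had overlapping groups in each comparison. *SMAD5* (chromosome 5, 135468534 to 135524435) ranged from 71.5 to 109 CPM over all 16 libraries, and both ends of this range were DDR1i libraries (replicates 1 and 2). Its log2 fold change against collagen was 0.12 with DDR1i (interval -0.19 to 0.43) and 0.11 with RUNXi (interval -0.20 to 0.43). *SMAD1* (chromosome 4, 146402346 to 146480328) ranged from 12.5 to 23.2 CPM, both in control libraries, and its log2 fold changes were 0.01 and -0.01 against collagen, with intervals from -0.46 to 0.46. *BMPR1A* (chromosome 10, 88516353 to 88692582) stood at 23.5, 18.2 and 16.9 CPM in the tested collagen libraries (23.7 CPM in replicate 3), at 22.1, 22.3, 19.0 and 23.2 CPM with DDR1i and at 33.1, 22.9, 19.0 and 24.5 CPM with RUNXi. Its log2 fold change with RUNXi was 0.35 against collagen (interval -0.06 to 0.77, adjusted p = 0.329, edgeR quasi-likelihood test, Benjamini-Hochberg), and 0.15 with DDR1i. *SMAD1*, *SMAD5*, *BMPR1A*, *ID2* and *ID4* overlap annotated genes on the opposite strand, and the use of strand in counting is not given in the sources used here, so that reads of both strands cannot be told apart. No annotated gene overlaps *ID1* or *ID3*.

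**Figure D4:**
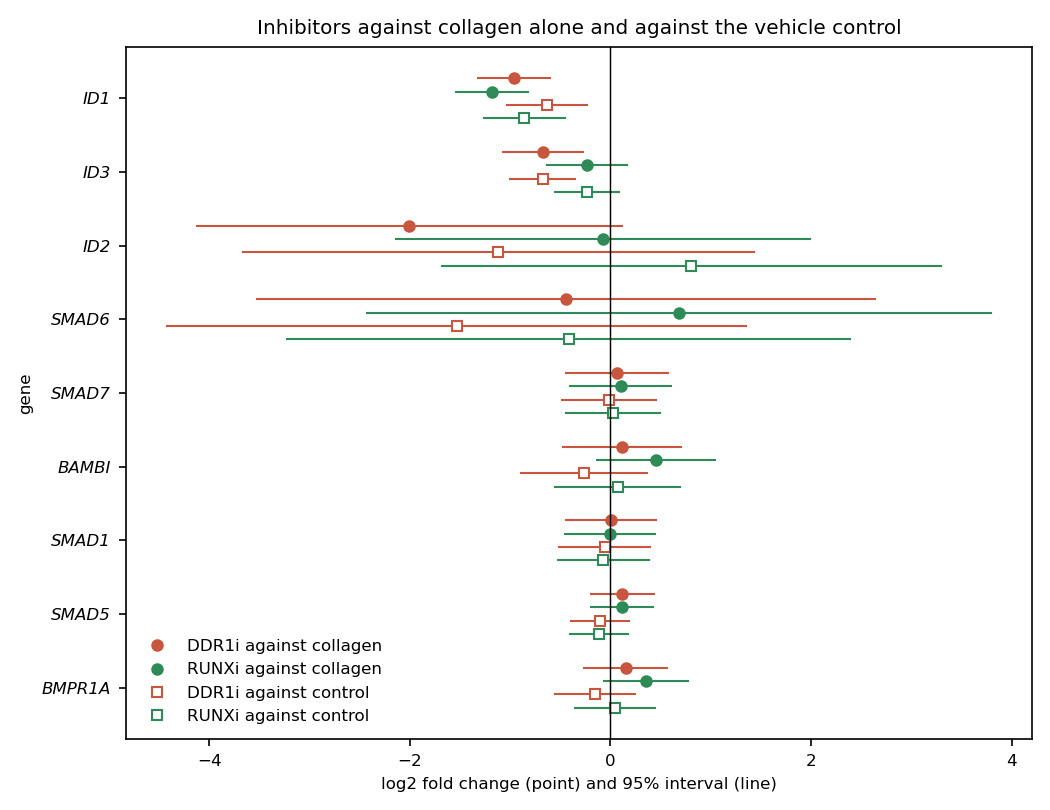
Log2 fold change (points, horizontal axis) with its 95% interval (lines) for the 9 tested members, by inhibitor (colour) against collagen (filled circles) and against the control (open squares). The intervals of *ID1* against the control and the DDR1i intervals of *ID3* lie below 0, and those of *SMAD7*, *BAMBI*, *SMAD1*, *SMAD5* and *BMPR1A* include 0. The intervals of *ID1* against collagen also lie below 0, but the genes were picked on those values.

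Of the 10 members, 9 passed the filter on low counts. *ID2* and *SMAD6* passed it in spite of libraries at 0. Against collagen, 1 of the 9, *ID1*, was called with DDR1i, where 2.47% of all tested genes were called, and the same 1 with RUNXi, where 4.05% were called. Both counts come from the comparisons that picked the genes, and nothing is read from them. With collagen replicate 3 included, 0 of the 9 were called with DDR1i, and 9 genes in all. The remaining comparisons called 0 of the 9 members with edgeR's quasi-likelihood test, against 0.568% of all tested genes for DDR1i against RUNXi, 0% for collagen against control, 0.212% for DDR1i against control and 0.401% for RUNXi against control. At an unadjusted p under 0.05, 1, 0, 2 and 1 members passed in these 4 comparisons, beside 6.19%, 13.4%, 5.13% and 6.81% of all tested genes. DESeq2 called *ID3* for DDR1i against control, where it called 0.582% of the genes it gave an adjusted p, and *ID1* for RUNXi against control (0.981%). It called no member for DDR1i against RUNXi (1.14%) or collagen against control (6.39%).

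The median log2 fold change of the 9 members was 0.01 with DDR1i and 0.10 with RUNXi against collagen, beside medians of 0.00 and 0.01 over all tested genes, and 4 of the 9 were below 0 in each. Against the control, 9 of 9 members were below 0 with DDR1i (median -0.26) and 5 of 9 with RUNXi (median -0.07), beside medians of 0.01 and 0.00 over all tested genes. Only *ID1* and *ID3* with DDR1i, and *ID1* with RUNXi, had 95% intervals wholly below 0. The member nearest 0 with DDR1i was *SMAD7*, at -0.01. The comparisons share libraries and are not independent of each other. Groups that did not overlap were found for *ID1* and *ID2* with DDR1i against collagen (2 of 9 members, 15.1% of all tested genes) and for *ID1* with RUNXi against collagen (18.2%). They were found for *ID3* with DDR1i against control (3.31%) and for *ID1* with RUNXi against control (4.21%). No member had groups apart for DDR1i against RUNXi (4.49%) or collagen against control (13.5%).

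Per kilobase of transcript, *ID3* and *ID1* were the most abundant members, at means of 104 and 101 CPM per kb over all libraries, and their ranges (60.2 to 167 and 54.9 to 172) overlapped almost wholly. *SMAD5* followed at 12.5 CPM per kb (10.2 to 15.6), apart from the genes on either side of it. *SMAD1* (6.06), *BAMBI* (5.50), *SMAD7* (3.87) and *BMPR1A* (3.55) came next, each overlapping its neighbours in this order. *ID2* stood at 0.933 and *SMAD6* at 0.230 CPM per kb, and *ID4* was last with 0 counts.

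Transcript length moved with the direction of change in the comparisons that held the collagen libraries. For collagen against control the median log2 fold change was 0.29 under 1500 bases and -0.26 from 5000 bases. With the inhibitors against collagen this order was reversed. For the inhibitors against the control, the medians of these 2 classes lay between -0.02 and 0.06. Of the tested genes under 1500 bases, 75.1% were lower with DDR1i than with collagen (median log2 fold change -0.22 over 1962 genes) and 73.9% lower with RUNXi (median -0.26). Among genes of 5000 bases or more, 26.4% and 26.7% were lower (medians 0.23 and 0.24 over 3459 genes). *ID1*, *ID3* and *ID2* (1299 bases) are in the short class, and *BMPR1A* (6417 bases) and *SMAD5* (7012 bases) in the long class. The log2 fold changes of *ID1* and the DDR1i value of *ID3* were below the median of their class, and those of *BMPR1A* and *SMAD5* with DDR1i were below that of theirs. With the trend removed from each library, *ID1* stood at -0.88 with DDR1i and -1.01 with RUNXi against collagen, and *ID3* at -0.52 (adjusted p = 0.0920, edgeR quasi-likelihood test, Benjamini-Hochberg) and -0.02. Against the control, where the short class had medians of 0.06 with DDR1i and 0.03 with RUNXi, removal of the trend gave -0.82 and -0.95 for *ID1* and -0.87 for *ID3* with DDR1i (adjusted p = 0.0859, 0.0165 and 0.0326, same edgeR test).

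**Figure D5:**
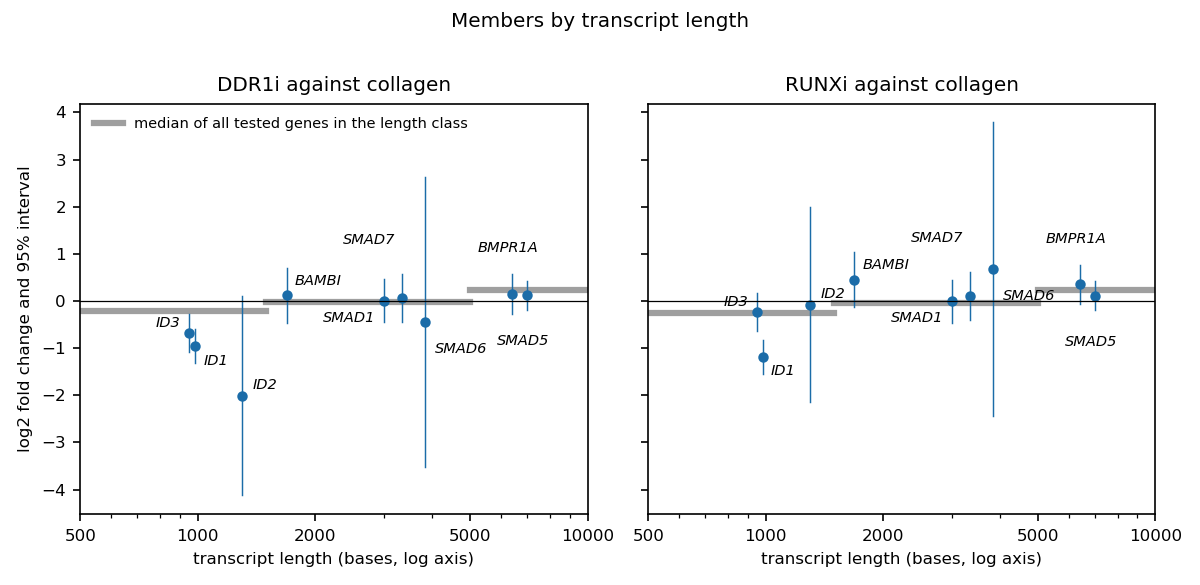
Log2 fold change with 95% interval (vertical axis) of the 9 tested members against transcript length in bases (log axis), for DDR1i (left) and RUNXi (right) against collagen. Grey bars give the median of all tested genes under 1500 bases, from 1500 to 5000 bases and from 5000 bases (-0.22, -0.03 and 0.23 on the left). *ID1* lies under the bar of its class in both panels and *ID3* on the left.

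The rest of the pathway was read from 8 lists of 73 genes. In these, 53 were tested with the inhibitors, and 3 were higher and 0 lower with DDR1i than with collagen, beside 2.47% of all tested genes called in either direction. At an unadjusted p under 0.05, 12 passed with DDR1i, beside 18% of all tested genes. With RUNXi against collagen 0 were called with edgeR, beside 4.05% of all tested genes, and 12 passed at an unadjusted p under 0.05, beside 21.1%. DESeq2, which called 8.82% of its genes with DDR1i and 11.3% with RUNXi against collagen, called *KLF10* and *SKI*, a repressor of SMADs, higher and *BHLHE40* lower with RUNXi. Median log2 fold changes of the pathway genes against collagen were 0.24 and 0.22, beside 0.00 and 0.01 over all tested genes. All tested genes of 5000 bases or more had medians of 0.23 and 0.24, and transcript length was not accounted for in the pathway medians. Against the control, the pathway medians were 0.21 with DDR1i and 0.04 with RUNXi. None of the 5 tested BMP ligands, 7 receptors and co-receptors, 5 extracellular antagonists, 11 intracellular regulators of SMADs or 6 E proteins and helix-loop-helix partners of the ID proteins was called with edgeR in any comparison. The genes that edgeR called, from the other SMADs, BMP targets and TGF-β targets, were all higher in the first-named group of their comparison. With DDR1i against collagen, DESeq2 called *TGFBR2*, a TGF-β receptor, higher beside the 3 genes called with edgeR.

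*SMAD3* (chromosome 15, 67356101 to 67487511), which carries TGF-β rather than BMP signals, stood at 31.8, 31.4 and 30.1 CPM in the tested collagen libraries and at 40.5, 47.5, 62.0 and 55.1 CPM with DDR1i. Its log2 fold change was 0.72 (adjusted p = 0.0196, edgeR quasi-likelihood test, Benjamini-Hochberg). Collagen replicate 3, at 48.9 CPM, lay among the DDR1i libraries, and with it included the log2 fold change was 0.52 and the adjusted p 0.454 (same edgeR test). *LTBP2* (chromosome 14, 74964886 to 75079081), a matrix protein of the family that binds latent TGF-β, stood at 23.0, 31.0 and 19.5 CPM in the tested collagen libraries (53.2 CPM in replicate 3) and at 38.2, 45.6, 75.4 and 45.8 CPM with DDR1i. *LTBP2* rose by 1.06 with DDR1i (adjusted p = 0.0223, same edgeR test), and the call was likewise lost with collagen replicate 3 included (0.69, adjusted p = 0.537, same edgeR test). With the length trend removed, the log2 fold change was 0.48 for *SMAD3* (adjusted p = 0.132, same edgeR test) and 0.77 for *LTBP2* (adjusted p = 0.0891, same edgeR test), and neither was called. Of 22 alternative settings, 15 called *SMAD3* (adjusted p from 0.00193 to 0.509, edgeR or DESeq2) and 15 called *LTBP2* (1.78e-06 to 0.572). Each fit that only left out a RUNXi library, which is outside this comparison, was among those calls for both genes.

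*KLF10* (chromosome 8, 103661012 to 103667953), a repressor known as an early gene of TGF-β and BMP signals, was higher with both inhibitors than in the control. It stood at 46.5, 37.3, 36.7 and 44.5 CPM in the control, at 58.6, 39.4 and 30.9 CPM in the tested collagen libraries (54.0 CPM in replicate 3), at 64.0, 72.3, 74.5 and 63.4 CPM with DDR1i and at 69.8, 65.8, 55.3 and 58.9 CPM with RUNXi. The inhibitor groups lay above the control with no overlap. The log2 fold change against the control was 0.73 with DDR1i (adjusted p = 0.0143, edgeR quasi-likelihood test, Benjamini-Hochberg) and 0.60 with RUNXi (adjusted p = 0.0483, same edgeR test), and 0.68 with DDR1i against collagen (adjusted p = 0.0343, same edgeR test). The call against collagen was lost with collagen replicate 3 included (log2 fold change 0.58, adjusted p = 0.379, same edgeR test). With the length trend removed these log2 fold changes were 0.62, 0.53 and 0.65, and none was called (adjusted p = 0.0773, 0.139 and 0.0630, same edgeR test). The call with RUNXi was kept in 1 of 12 fits that each left out 1 library. Over 22 settings, *KLF10* was called in 14 with DDR1i against collagen (adjusted p from 0.00188 to 0.379, edgeR or DESeq2), in 17 with DDR1i against control (4.91e-05 to 0.202) and in 6 with RUNXi against control (0.00175 to 0.489). In direction *KLF10* was opposite to *ID1* in the same libraries. It was the only called gene of the 6 tested on its list of other BMP targets, and it does not stand for that list. The median log2 fold changes of the list were -0.06 with DDR1i and -0.32 with RUNXi against collagen. Against the control they were 0.40 and 0.25.

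*BHLHE40* (chromosome 3, 5021122 to 5027008), a helix-loop-helix repressor that responds to TGF-β, was higher with DDR1i than with RUNXi by 0.84 (adjusted p = 0.00510, edgeR quasi-likelihood test, Benjamini-Hochberg). It stood at 111, 89.3, 90.4 and 73.1 CPM with DDR1i and at 50.8, 47.6, 44.7 and 59.9 CPM with RUNXi, with no overlap, and it was called in 22 of 22 alternative settings (adjusted p from 5.19e-07 to 0.0386, edgeR or DESeq2). Of the pathway genes, edgeR called *BHLHE40* alone between the inhibitors (1 of 53, beside 0.568% of all tested genes), and DESeq2 called *TOB1*, a SMAD regulator, as well, lower with DDR1i (log2 fold change -0.57, adjusted p = 0.0859 with edgeR).

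Among the epithelial markers, *KRT14*, a keratin of basal cells, was singled out after its values were seen, as the 1 marker called lower with DDR1i in each comparison. It stood at 3396, 3317 and 4795 CPM in the tested collagen libraries (3361 CPM in replicate 3), at 2199.7, 1620.1, 2225 and 2197 CPM with DDR1i and at 4267, 3907, 4224 and 3695 CPM with RUNXi. Its log2 fold change with DDR1i was -0.90 against collagen (adjusted p = 0.00123, edgeR quasi-likelihood test, Benjamini-Hochberg), -0.97 against RUNXi (adjusted p = 6.76e-05, same edgeR test) and -0.79 against the control (adjusted p = 0.000616, same edgeR test). The summed epithelial markers ranged from 11266 to 14306 CPM with DDR1i and from 15611 to 21105 CPM with collagen, all 4 collagen libraries included. Of the other 9 markers, *ITGA6*, an integrin of basal cells, was called higher with both inhibitors against collagen, by 0.44 with DDR1i and 0.59 with RUNXi (adjusted p = 0.0471 and 0.0106, same edgeR test). *KRT18*, a luminal keratin, fell by 0.46 with RUNXi against collagen (adjusted p = 0.0419, same edgeR test). Of 11 fits that each left out 1 library, 2 kept the call of *ITGA6* with DDR1i, 11 that with RUNXi and 4 that of *KRT18*. With collagen replicate 3 included, none of these 3 was called (adjusted p = 0.457, 0.0775 and 0.322, same edgeR test). The part of these changes in the lower ID values was not tested.

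Of all tested genes, those whose log2 CPM followed *ID1* most closely over the 16 libraries were *S100A14* (Pearson r 0.904), *AQP3* (0.887), *GOT1* (0.876), *ATP5B* (0.865) and *FYB* (0.858). The most opposite were *ANPEP* (-0.896), *SPRY4* (-0.885), *ITPRIPL2* (-0.880), *RRBP1* (-0.875) and *DLGAP4* (-0.870). The values share libraries, groups and depth, and are a description. Transcripts of the 5 alike genes were 1054 to 4829 bases long and those of the 5 opposite genes 3662 to 7666. None of the other members was near either end. *ID2* had an r of 0.44 and came 1505th of 13547 genes, *SMAD6* had 0.36 (2329th), *ID3* had 0.24 (3598th), and *SMAD7* had -0.28. Within groups, with the group means taken out, the r with *ID1* was 0.59 for *ID2*, 0.32 for *SMAD6* and -0.29 for *ID3*, the first pair resting on few counts.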

How the data were processed

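RNA was extracted with a column kit, libraries were prepared with a TruSeq RNA kit, and 150-bp paired-end reads were aligned by the authors with STAR to GRCh37. The deposited table holds raw counts per gene. The counting tool, annotation and use of strand are not given in the sources used here. Of 26475 symbols, 22024 were matched to the RefSeq or GRCh37 annotation, 1348 of them as older symbols. Collagen replicate 3 was left out, as the authors did.

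Counts were filtered with filterByExpr and scaled with TMM, and each comparison was tested with edgeR's quasi-likelihood test (edgeR 4.0.16, R 4.3.3) with Benjamini-Hochberg adjustment over all tested genes. The inhibitor groups and collagen entered 1 fit (11 libraries, 13548 genes), collagen and control another (7 libraries, 13092 genes), and the inhibitor groups and control the last (12 libraries, 13213 genes). DESeq2 1.42.0 was an alternative. Scripts were tested on simulated data. The members and lists were chosen with earlier results of these data known. All members were named, with each gene of the lists that was called, the targets *DDR1*, *RUNX1* and *CBFB*, and the 5 genes most and least like *ID1* by r of log2(CPM + 1). Alternatives were other scalings and filters, collagen replicate 3 included, all groups in 1 fit, a replicate block, removal of the transcript length trend and each library left out. Total counts between 12184619 and 44332378 limit the precision for *ID2* and *SMAD6*. Limits from counts cover counting error only.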

Additional observations from a re-analysis of the deposited data

Results flagged for a closer look

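In a group of 4 libraries, 1 library stood far from the other 3 in 3 of the 36 groups looked at, where chance gives about 1 in 20, or 1.8 of 36. *ID3* stood at 158 CPM in collagen replicate 4, beside 92.4 to 95.9 CPM in the other collagen libraries, a gap of 0.948 of the range of the group. This library is part of the reference for both inhibitors, and without it the log2 fold change of *ID3* with DDR1i against collagen was -0.38 in place of -0.68.

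*ID3* stood at 75.2 CPM in RUNXi replicate 1, beside 105 to 107 CPM in the other RUNXi libraries (a gap of 0.943). *SMAD7* stood at 18.2 CPM in DDR1i replicate 4, beside 10.6 to 11.8 CPM in the other DDR1i libraries (a gap of 0.845). The cause of these values was not tested.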

How the results depend on the processing

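In brackets is the share of all tested genes called in the same fit. The genes were picked on *ID1* against collagen, so its calls against collagen are a description under every setting. Members called for DDR1i against collagen numbered 1 as tested (2.47%), 2 with DESeq2 (8.82%), without the filter (4.22%), with the replicate block (3.96%) and with the block and the length trend removed (3.53%), and 0 with collagen replicate 3 included (0.0674%), also with the length trend removed (0.07%). The second member was *ID3* in each case. For RUNXi against collagen the count was 1 as tested (4.05%) and under the other settings (0.449% to 11.3%), with 1 exception. It was 0 with collagen replicate 3 included and the length trend removed (0.49%), a setting chosen after seeing the data. For DDR1i against RUNXi it was 0 as tested (0.568%) and under the other settings (0.481% to 1.14%), with 1 exception. It was 1 (*ID3*) with the block and the length trend removed (1.7%). For DDR1i against control it was 0 as tested (0.212%), 1 (*ID3*) with DESeq2 (0.582%), without the filter (0.221%) and with the length trend removed (0.149%), and 2 (*ID1* and *ID3*) with the block (0.878%), also with the length trend removed (0.558%). For RUNXi against control it was 0 as tested (0.401%), and 1 (*ID1*) with DESeq2 (0.981%), with at least 10 counts in every library (0.589%), with the block (1.23%), with the length trend removed (0.291%) and with both (0.88%). For collagen against control it was 0 under every setting run (0% to 6.39%). Leaving out each library in turn gave 1 to 2 members for DDR1i against collagen (0.447% to 4.92%) and 1 to 1 for RUNXi against collagen (0.876% to 5.12%). It gave 0 to 0 for DDR1i against RUNXi (0.394% to 0.777%) and for collagen against control (0%). Against control it gave 0 to 1 with DDR1i (0.0594% to 0.35%) and 0 to 1 with RUNXi (0.193% to 0.58%). *ID3* was added against collagen without collagen replicate 1 or 2, DDR1i replicate 4 or RUNXi replicate 1, and against control without control replicate 4 or DDR1i replicate 4. *ID1* was added for RUNXi against control without control replicate 4 or DDR1i replicate 1, 3 or 4. The cause of these changes was not tested. Of 1140 alternative log2 fold changes of the members, 100 had the other sign, 0 of them in a value called in either fit.

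The labels do not say that the replicate numbers pair the samples, and the fits as tested did not pair them. The calls depend on this choice. With the block, *ID1* was called against the control with both inhibitors and *ID3* with DDR1i. Libraries with the same number correlated in their deviations from the group means with a median r of 0.0726 (-0.0925 to 0.276, 21 pairs). For libraries with different numbers the median r was -0.0332 (-0.144 to 0.191, 63 pairs). The highest same-number values came from replicates numbered 4, whose pairs had an r of 0.16 to 0.276. No same-number pair of the other replicates was above 0.141. Most libraries correlated best with one of their own number. The exceptions were control replicates 1 and 2, DDR1i replicate 2 and RUNXi replicate 1. With collagen replicate 3 included, 9 genes in place of 334 were called for DDR1i against collagen. Depth limits *ID2*, *SMAD6* and *ID4*, whose changes were not detectable here.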
